A study of Mus musculus with 12 samples.

Results

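The 8 genes described here, Kit, Fcer1a, Ms4a2, Cpa3, Hdc, Gata2, Mcpt8 and Cma1, are commonly read as marking mast cells and basophils. They were taken as every probe set that the array's annotation gives to these symbols alone, which made 12 probe sets of 45037 and 8 genes of the 18193 that the annotation names. RNA came from spleen cells of DBA/2 mice aged 10 weeks, cultured for 9 days with KLN-205, a line grown from a squamous lung carcinoma of the mouse. SEMA3A, a semaphorin that cells secrete, was knocked down in the tumour cells of all groups, and every group had interleukin-2 at 100 units/mL, renewed every 3 days. In the SEMA6A+SEMA3A group the tumour cells overexpressed the membrane semaphorin SEMA6A, and the cultures also received purified SEMA3A at 10 µg/mL. The SEMA6A group had the overexpression alone, the SEMA3A group had the protein alone, and the control group had neither. There were 3 arrays for each of the 4 groups, and the labels do not say whether these were separate cultures or animals, so p-values measure only the spread between these samples. The overexpression and the knockdown belong to the tumour cells, while the RNA was labelled as that of the spleen cells.

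Mast cells and basophils are rare granule-filled blood-derived cells best known for allergic responses. IgE bound to a high-affinity receptor on their surface, built from an alpha chain (Fcer1a), a beta chain (Ms4a2) and the shared gamma chain Fcer1g, triggers release of histamine, which Hdc makes, and of granule proteases such as Cpa3, Cma1 and, in mouse basophils, Mcpt8. KIT, the receptor for stem cell factor, keeps mast cells alive and is also carried by blood progenitors, and the transcription factor GATA2 is needed for mast cell and basophil development.

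Only part of the set was bright on these arrays, and brightness alone does not identify a cell type. Kit, Cpa3 and Mcpt8 lay above the median signal of all probe sets on every one of the 12 arrays, Cma1 on 8 arrays and Gata2 on 6 arrays. Fcer1a, Ms4a2 and Hdc lay below that median on all 12 arrays, so neither the alpha and beta chains of the IgE receptor nor the enzyme that makes histamine lay above that level on any array. None of the 12 probe sets passed the adjusted threshold of 0.05 in the 5 pairwise comparisons or for the interaction, and no probe set on the whole array did either; SEMA6A was not tested against SEMA3A. The genes are therefore called by their names below and not by a cell type. RNA from a mixed culture cannot tell fewer cells of a type from less RNA per cell.

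Promoter sequences of 6 of the genes are shown first. Those of Kit, Cpa3, Mcpt8 and Cma1 are given because the signals of 5 of their 6 pairs were correlated across arrays, and those of Fcer1a and Ms4a2 because their windows held the GATA motif although their signals were dim. Each is the RefSeq window of 250 bases before and 50 bases after an annotated start in GRCm38.p6, 300 bases on the strand of the gene, and capitals mark matches to AGATAA or TGATAA on either strand (GATA motif) or to CACGTG or CATGTG on either strand (E-box).
Kit, chr5:75574737-75575036, plus strand: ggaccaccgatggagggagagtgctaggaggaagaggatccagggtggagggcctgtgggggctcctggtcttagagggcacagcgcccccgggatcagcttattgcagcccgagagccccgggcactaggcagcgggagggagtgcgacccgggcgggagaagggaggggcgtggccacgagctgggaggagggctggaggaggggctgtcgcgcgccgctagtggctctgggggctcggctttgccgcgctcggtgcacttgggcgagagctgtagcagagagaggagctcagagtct
Cpa3, chr3:20242132-20242431, minus strand: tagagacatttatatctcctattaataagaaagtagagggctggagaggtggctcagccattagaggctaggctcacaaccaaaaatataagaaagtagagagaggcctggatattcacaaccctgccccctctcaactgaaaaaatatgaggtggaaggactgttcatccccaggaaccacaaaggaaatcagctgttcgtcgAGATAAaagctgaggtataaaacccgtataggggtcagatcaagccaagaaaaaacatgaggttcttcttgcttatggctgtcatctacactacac
Mcpt8, chr14:56085148-56085447, minus strand: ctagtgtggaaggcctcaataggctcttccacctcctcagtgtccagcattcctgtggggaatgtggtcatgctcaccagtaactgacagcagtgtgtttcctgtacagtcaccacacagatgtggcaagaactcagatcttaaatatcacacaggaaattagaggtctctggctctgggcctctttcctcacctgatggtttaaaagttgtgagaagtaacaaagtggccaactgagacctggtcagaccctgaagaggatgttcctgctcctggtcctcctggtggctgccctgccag
Cma1, chr14:55944626-55944925, minus strand: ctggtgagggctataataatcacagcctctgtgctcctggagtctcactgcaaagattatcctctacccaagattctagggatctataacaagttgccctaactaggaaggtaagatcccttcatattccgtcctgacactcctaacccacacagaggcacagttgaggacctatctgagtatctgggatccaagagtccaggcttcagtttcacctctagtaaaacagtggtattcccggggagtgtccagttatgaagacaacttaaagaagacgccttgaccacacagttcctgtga
Fcer1a, chr1:173227180-173227479, minus strand: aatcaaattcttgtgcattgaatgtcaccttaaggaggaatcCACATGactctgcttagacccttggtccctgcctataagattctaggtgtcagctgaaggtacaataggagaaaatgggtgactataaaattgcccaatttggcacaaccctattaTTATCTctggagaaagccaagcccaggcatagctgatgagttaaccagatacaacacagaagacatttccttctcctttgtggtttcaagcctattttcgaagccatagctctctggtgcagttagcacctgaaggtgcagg
Ms4a2, chr19:11623670-11623969, minus strand: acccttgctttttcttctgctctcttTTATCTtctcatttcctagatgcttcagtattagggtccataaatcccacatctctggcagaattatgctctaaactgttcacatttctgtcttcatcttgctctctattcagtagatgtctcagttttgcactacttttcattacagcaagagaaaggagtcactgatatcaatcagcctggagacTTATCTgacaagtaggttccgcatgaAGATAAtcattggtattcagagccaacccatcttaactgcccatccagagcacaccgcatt

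All 8 genes had a window, and 10 windows were available since Kit and Gata2 have 2 starts each. The GATA motif was found in 3 of the 10 windows, those of Cpa3, Fcer1a and Ms4a2, against 18.6% of all 32851 promoter windows of the same length. The difference was not tested. In Cpa3, the carboxypeptidase gene, it stood at -46 from the start, in Fcer1a at -92, and in Ms4a2 at -224, -37 and -11. The E-box, which factors such as MITF bind, was found in 1 of the 10 windows, that of Fcer1a, at -208, against 20.4% of all windows. The letters searched were absent from the windows of Kit, Hdc, Gata2, Mcpt8 and Cma1. Kit and both Gata2 windows were rich in G and C, at 69.0% for Kit and 69.3% and 73.7% for Gata2, whereas the others lay between 41.0% and 51.0%, against a median of 52.7% over all windows.

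Signals are the deposited linear MAS5 values, which summarise the probes of a set into 1 brightness. Array medians lay between 42.5 and 53.5, and the arrays had been scaled to a common mean. The 3'/5' ratio of the transferrin receptor control, a sign of RNA or labelling quality, was 5.93 to 12.2 in SEMA6A+SEMA3A, 8.39 to 35.7 in SEMA6A, 17.2 to 18.1 in SEMA3A and 6.82 to 9.34 in the control. SEMA6A array 2 stood apart, with a Gapdh 3'/5' ratio of 1.22 where the other 11 arrays had 0.767 to 0.818. The pyruvate carboxylase ratio averaged 5.67 ± 1.05 on arrays with SEMA3A protein and 9.29 ± 3.29 on those without (SD, n = 6 each, 2-sided exact permutation p = 0.0043, adjusted over 8 tests p = 0.0346).

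Kit is the growth factor receptor of the set and has 2 probe sets. On 1452514_a_at the signals were 496, 597 and 445 in SEMA6A+SEMA3A, 435, 679 and 604 in SEMA6A, 890.0, 661 and 537 in SEMA3A, against 377, 451 and 459 in the control. The 5 lowest arrays were the 3 controls, SEMA6A array 1 and SEMA6A+SEMA3A array 3, and SEMA3A array 1 was the highest. All 3 SEMA3A arrays lay above all 3 control arrays, while the other groups overlapped the controls. Group means ran 513 ± 77.8 in SEMA6A+SEMA3A, 573 ± 125 in SEMA6A, 696 ± 179 in SEMA3A and 429 ± 45.3 in the control (SD, n = 3 each). The log2 difference was 0.67 for SEMA3A over control (SE 0.19, 95% interval 0.26 to 1.07, limma adjusted p = 0.69), and 0.40 for SEMA6A over control (SE 0.19, interval -0.01 to 0.80, adjusted p = 0.65). With both factors it was 0.27 over control (interval -0.14 to 0.68, adjusted p = 0.95), and the difference from SEMA3A alone was -0.39 (interval -0.80 to 0.01, adjusted p = 0.58). In order of mean level the groups ran SEMA3A, SEMA6A, SEMA6A+SEMA3A and control, and no neighbours in that order differed beyond the spread of their arrays.

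The interaction asks whether the effect of SEMA6A was the same with SEMA3A protein as without it. For Kit 1452514_a_at it was -0.79 (SE 0.27, interval -1.37 to -0.21, limma adjusted p = 0.37), that is, -0.39 with SEMA3A protein minus 0.40 without it. The value did not pass the threshold, and its adjusted p lay between 0.08 and 0.62 over all alternative analyses. Values of the difference between SEMA3A and control ranged from 0.48, when SEMA3A array 1 was left out, to 0.82.

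The other Kit probe set, 1415900_a_at, lay above the array median on 10 of 12 arrays. It read 26.2, 49.8 and 61.2 in SEMA6A+SEMA3A, 49.6, 58.0 and 79.1 in SEMA6A, 119.9, 88.3 and 63.5 in SEMA3A, against 86.5, 75.4 and 54.1 in the control. All 3 arrays of SEMA6A+SEMA3A lay below all 3 of SEMA3A, while they overlapped those of the control. The log2 difference of SEMA6A+SEMA3A from SEMA3A was -0.84 (SE 0.28, adjusted p = 0.48), and from control it was -0.64 (SE 0.28, adjusted p = 0.85). Against control the 2 Kit probe sets thus had opposite signs in SEMA6A+SEMA3A (0.27 and -0.64) and in SEMA6A (0.40 and -0.22), and the same sign in SEMA3A (0.67 and 0.20).

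Fcer1a and Ms4a2 encode the alpha and beta chains of the IgE receptor. Fcer1a 1421775_at read 23.4, 2.98 and 1.09 in SEMA6A+SEMA3A, 16.1, 27.0 and 21.5 in SEMA6A, 11.03, 25.4 and 4.75 in SEMA3A, against 4.18, 0.518 and 15.7 in the control, never above 27.0. The 3 SEMA6A arrays lay just above the highest control array, with a log2 difference of 0.73 (SE 0.34, interval -0.01 to 1.47, adjusted p = 0.65). Adding the pseudocount of 16 shrinks differences at such levels. For Ms4a2 the 2 probe sets ranged from 6.85 to 32.0 (1421475_at) and from 1.18 to 28.5 (1443264_at), with every group overlapping every other. Their log2 differences lay between -0.30 and 0.25 over the 5 pairwise comparisons, with adjusted p of 0.836 or more. Fcer1g, the gamma chain that other Fc receptors also use, read 14375 ± 905 in SEMA6A+SEMA3A, 14135 ± 754 in SEMA6A, 16379 ± 1396 in SEMA3A and 13651 ± 504 in the control (SD, n = 3 each).

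**Figure D1:**
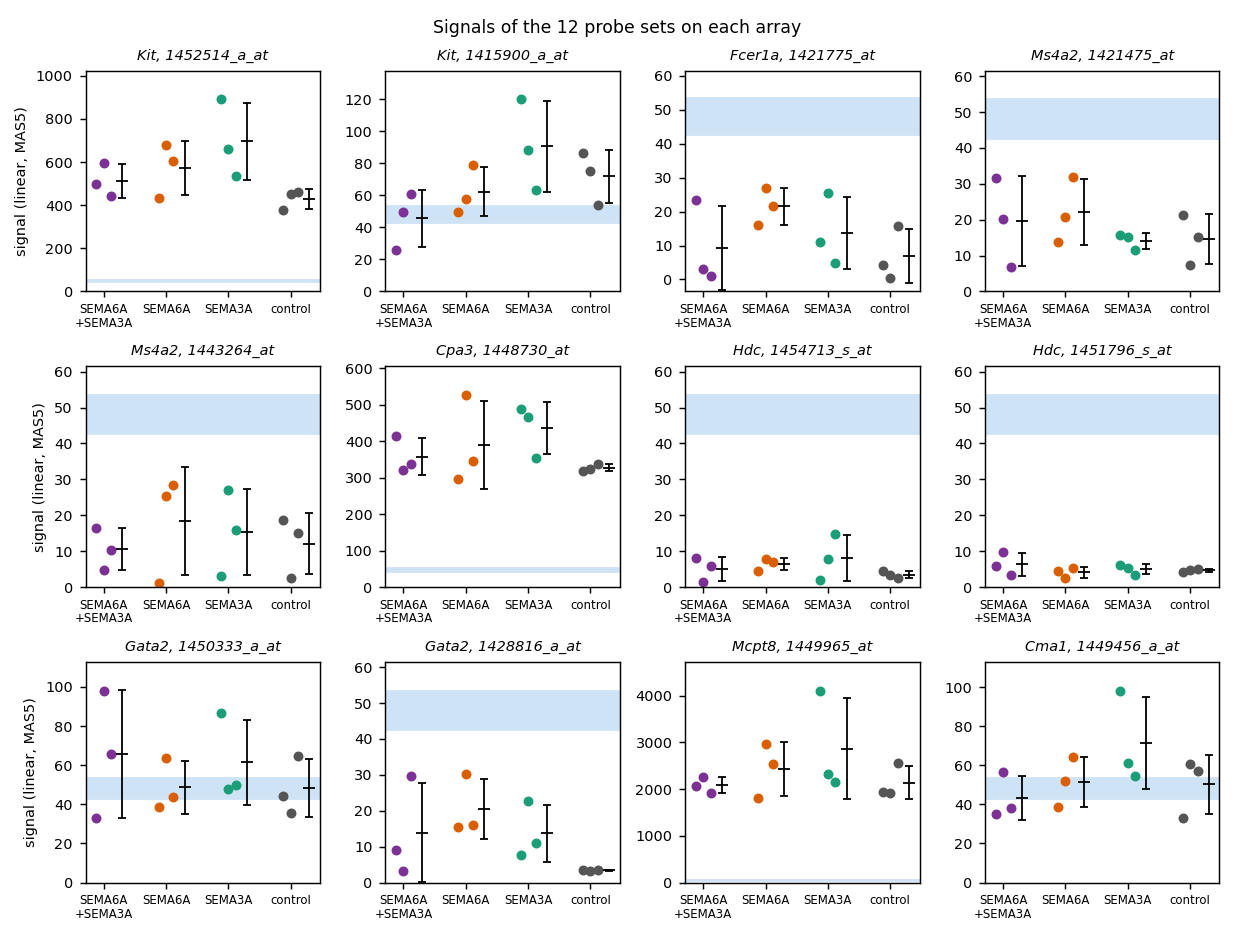
Signals of the 12 probe sets of Kit, Fcer1a, Ms4a2, Cpa3, Hdc, Gata2, Mcpt8 and Cma1 on a linear scale (y axis), 1 point per array, in the 4 groups (x axis), with the mean and SD beside each group (n = 3). The blue band is the range of the array medians, 42.5 to 53.5; Fcer1a, Ms4a2, Hdc and Gata2 1428816_a_at lie below it, and the highest Kit, Mcpt8 and Cma1 points belong to 1 SEMA3A array.

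The granule proteases differed in which array stood highest. Mcpt8, a serine protease of mouse basophils, read 2066, 2253 and 1915 in SEMA6A+SEMA3A, 1817, 2958 and 2543 in SEMA6A, 4108, 2328 and 2157 in SEMA3A, against 1937, 1922 and 2548 in the control on 1449965_at. SEMA3A array 1 stood alone at 4108, and the other 11 arrays lay between 1817 and 2958, so the groups overlapped throughout. Means were 2078 ± 169 in SEMA6A+SEMA3A, 2439 ± 577 in SEMA6A, 2864 ± 1080 in SEMA3A and 2136 ± 357 in the control (SD, n = 3 each). The log2 difference of SEMA3A from control was 0.38 (SE 0.22, interval -0.10 to 0.86, adjusted p = 0.77) and was 0.09 without SEMA3A array 1. With both factors the difference from control was -0.01 (interval -0.49 to 0.47), and the interaction was -0.58 (SE 0.32, adjusted p = 0.53), or -0.29 without SEMA3A array 1.

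Cpa3, the carboxypeptidase A3 of mast cell granules, read 416, 321 and 337 in SEMA6A+SEMA3A, 298, 527 and 346 in SEMA6A, 488, 468 and 354 in SEMA3A, against 319.8, 325 and 339 in the control. Control arrays were close together, at 328 ± 9.82 (SD, n = 3), and all 3 SEMA3A arrays lay above them. SEMA6A array 2, the one with the high Gapdh ratio, was the highest at 527, and SEMA6A array 1 the lowest at 298. The log2 difference of SEMA3A from control was 0.38 (SE 0.18, interval -0.01 to 0.78, adjusted p = 0.72), that of SEMA6A from control was 0.21 (interval -0.19 to 0.60, adjusted p = 0.79), turning to -0.020 without SEMA6A array 2, and that of SEMA6A+SEMA3A from control was 0.14 (interval -0.26 to 0.53, adjusted p = 0.99).

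Cma1, a mast cell chymase, sat near the array median, and read 35.3, 56.4 and 38.1 in SEMA6A+SEMA3A, 38.5, 51.7 and 64.3 in SEMA6A, 98.3, 61.3 and 54.5 in SEMA3A, against 33.1, 60.9 and 57.3 in the control. SEMA3A array 1 was again the highest, and the groups overlapped in every comparison. The difference furthest from 0 was that of SEMA6A+SEMA3A from SEMA3A, at -0.59 (SE 0.26, interval -1.16 to -0.02, adjusted p = 0.56), and against control it was 0.30 for SEMA3A, -0.04 for SEMA6A and -0.28 for SEMA6A+SEMA3A, with the value of SEMA6A turning positive in some alternatives. That of SEMA3A was 0.11 without SEMA3A array 1 and 0.10 without control array 1.

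Hdc, which makes histamine from histidine, stayed between 1.40 and 14.6 on 1454713_s_at and between 2.44 and 9.68 on 1451796_s_at. Its log2 differences lay between -0.19 and 0.24 in the pairwise comparisons. Gata2, the transcription factor gene, has 2 probe sets. On 1450333_a_at it read 33.0, 98.2 and 65.7 in SEMA6A+SEMA3A, 38.5, 63.9 and 43.6 in SEMA6A, 86.5, 47.8 and 49.9 in SEMA3A, against 44.3, 35.8 and 64.5 in the control, with 6 arrays above the array median and every group overlapping the others. On 1428816_a_at, below the median throughout, it read 8.93, 3.31 and 29.6 in SEMA6A+SEMA3A, 15.5, 30.2 and 16.1 in SEMA6A, 7.65, 22.7 and 10.9 in SEMA3A, against 3.47, 3.22 and 3.46 in the control. There the 3 controls lay between 3.22 and 3.47, below all 3 arrays of SEMA6A and of SEMA3A, and the difference of SEMA6A from control was 0.88 (SE 0.31, adjusted p = 0.64), while on 1450333_a_at it was -0.06 (SE 0.33, adjusted p = 0.98).

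**Figure D2:**
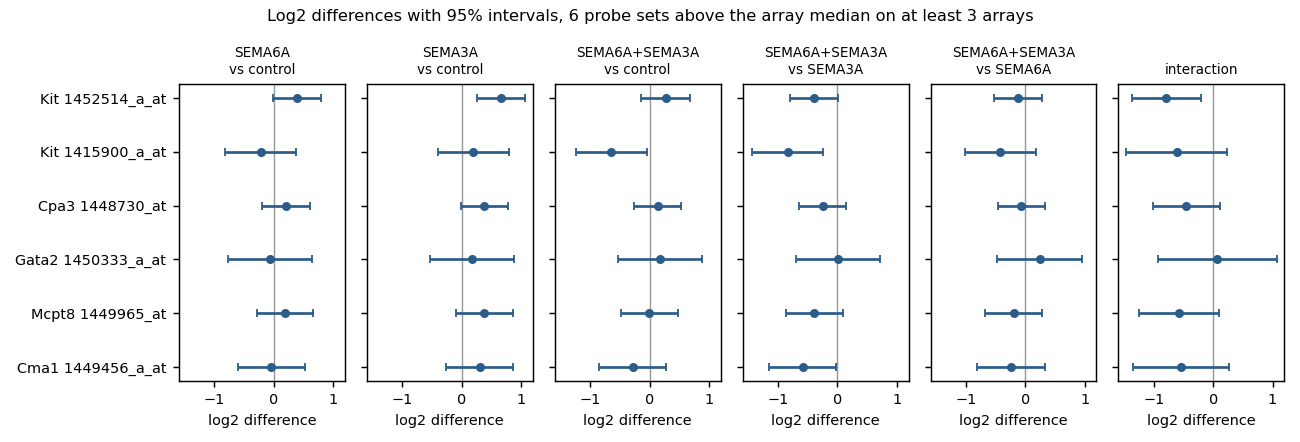
Log2 differences (x axis, points) with 95% intervals (bars) of the 6 probe sets above the array median on at least 3 arrays, in 5 pairwise comparisons and for the interaction. For Kit 1452514_a_at the interval for SEMA3A over control runs from 0.26 to 1.07 and that of the interaction from -1.37 to -0.21; the adjusted p-values are 0.69 and 0.37.

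Counted over the 12 probe sets, 0 were called in each of the 5 comparisons and for the interaction, where the share called over all 45037 probe sets was 0.00% as well. Without SEMA6A array 1 the interaction called 555 probe sets over the whole array, and 0 of the 8 genes on their probe sets of highest mean. At an unadjusted p under 0.05 the members called by limma were 1 for SEMA6A over control, 1 for SEMA3A over control, 1 for SEMA6A+SEMA3A over control, 2 for SEMA6A+SEMA3A over SEMA3A, 0 for SEMA6A+SEMA3A over SEMA6A and 2 for the interaction. Over all probe sets these shares were 7.65%, 6.97%, 5.69%, 8.81%, 8.28% and 10.8%, in that order.

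Probe sets whose arrays did not overlap between groups were also counted. For SEMA3A over control 3 of 12 member probe sets had all arrays above all controls (Kit 1452514_a_at, Cpa3 and Gata2 1428816_a_at), against 8.33% of all probe sets, and 0 lay wholly below, against 5.77%. For SEMA6A over control there were 2 (Fcer1a and Gata2 1428816_a_at), against 6.73%, and 0 below, against 4.71%. For SEMA6A+SEMA3A over control there were 0 above, against 8.82%, and 0 below, against 6.13%. For SEMA6A+SEMA3A over SEMA3A 1 lay wholly below (Kit 1415900_a_at), against 7.62%, and 0 above, against 8.07%. For SEMA6A+SEMA3A over SEMA6A there were 0 above, against 6.70%, and 0 below, against 5.38%. The median log2 difference of the 12 was 0.27 for SEMA3A over control with 10 above 0, 0.19 for SEMA6A over control with 8 above 0, 0.05 for SEMA6A+SEMA3A over control with 8 above 0 and -0.50 for the interaction with 10 below 0, and the median over all probe sets lay within 0.01 of 0 in each. These comparisons share control arrays and the probe sets share genes.

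Kit, Cpa3, Gata2, Mcpt8 and Cma1, the brighter members, make 10 pairs, of which 5 were correlated across the 12 arrays past the adjusted threshold by Pearson's r, and 0 when SEMA3A array 1 was left out. The correlation of Kit 1452514_a_at with Mcpt8 was r = 0.86 (permutation p = 0.00037, adjusted over 10 pairs p = 0.0037), with rho = 0.89 (permutation p = 0.00025, adjusted p = 0.0025). After subtracting the group means it was r = 0.90 (permutation p = 0.000772, the smallest that shuffling arrays within groups can give, adjusted p = 0.0077), so it was seen among arrays of the same group. Without control array 1 and SEMA3A array 1, the arrays farthest from the median of Kit, it was r = 0.74 (permutation p = 0.0158, adjusted p = 0.158). Passing the adjusted threshold thus depended on those 2 arrays. Of 10758 genes above the same level, 41 (0.381%) had an r with Kit at least as high.

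The other pairs had a lower r. Kit and Cpa3 had r = 0.75 (adjusted permutation p = 0.0168) and rho = 0.76 (adjusted p = 0.03), Mcpt8 and Cma1 r = 0.75 (adjusted p = 0.0168) and rho = 0.56 (adjusted p = 0.158), Cpa3 and Mcpt8 r = 0.70 (adjusted p = 0.0237) and rho = 0.70 (adjusted p = 0.0478), and Kit and Cma1 r = 0.69 (adjusted p = 0.0258) and rho = 0.40 (adjusted p = 0.286). Within groups their r was 0.60, 0.73, 0.61 and 0.81, with adjusted permutation p of 0.149, 0.083, 0.149 and 0.069. Without the 2 arrays farthest from the median of the gene named first, r was 0.65, 0.62, 0.34 and 0.27, with adjusted permutation p of 0.198, 0.202, 0.600 and 0.600. Passing the threshold thus depended on those arrays, SEMA3A array 1 among them in each. Leaving out the farthest arrays narrows the range and leaves 10 arrays, which can by itself weaken r and p. How far the relations rest on those arrays can therefore not be told. Shares of genes with an r at least as high to the gene named first were 3.42%, 4.03%, 6.74% and 6.60%. Cpa3 and Cma1 did not pass the threshold, with r = 0.34 (adjusted permutation p = 0.315), rho = 0.23 (adjusted p = 0.52), r = 0.16 within groups and r = 0.052 without the 2 arrays, and 30.4% of genes had an r with Cpa3 at least as high. Gata2 was not correlated with any of the other 4 genes past the adjusted threshold, its r running between 0.14 with Cpa3 and 0.53 with Mcpt8.

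**Figure D3:**
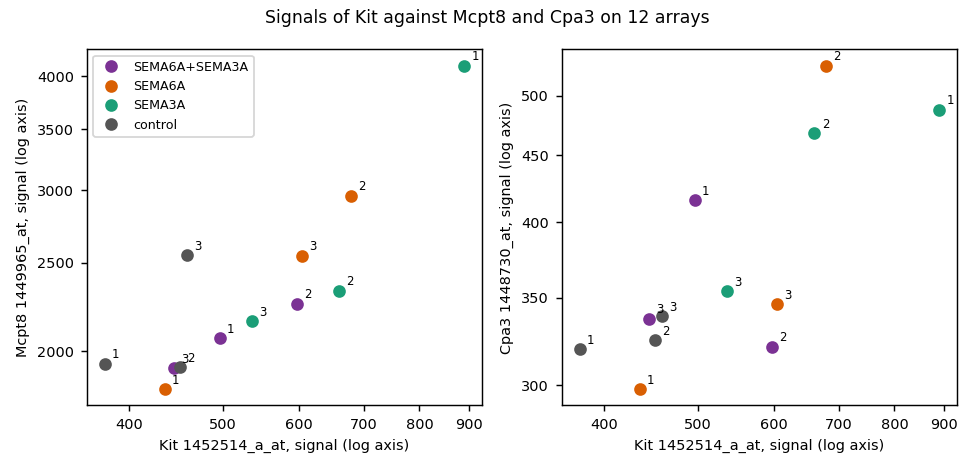
Signal of Kit 1452514_a_at (x axis, log scale) against Mcpt8 (left) and Cpa3 (right; y axes, log scale), 1 point per array with its replicate number, coloured by group. Kit and Mcpt8 correlate at r = 0.86 over 12 arrays on the log2 scale, and SEMA3A array 1 lies at the upper right with a Kit signal of 890.0 and a Mcpt8 signal of 4108.

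SEMA3A array 1 carried the highest signals of Kit, Mcpt8 and Cma1, and the summed signal of the macrophage genes was highest on it too. The 7 measured macrophage genes summed to 2221 on that array, and their sums ran from 1159 to 1276 in SEMA6A+SEMA3A, 978 to 1822 in SEMA6A, 1384 to 2221 in SEMA3A and 953 to 1132 in the control. Of those 7, Fcgr3, Cd68, Cd14 and Csf1r lay above the array median on all 12 arrays, Adgre1 and Lyz2 on 1 array each and Mpeg1 on none. Among the lists given below, the IgE receptor signalling sum of 41024 and the erythroid sum of 165.2 on that array were also the highest of the 12. The B cell, NK cell, neutrophil and T cell sums did not peak there. The B cell sum of 120.8 was the lowest of the 12 arrays, and the NK cell sum of 26437 was the lowest of the SEMA3A group. Nearly all of the NK cell sum was Nkg7 and Eomes, with medians of 19613 and 6587 over the arrays. The dimmer NK cell genes are hidden in it: Ncr1 read 156 ± 34.0 in SEMA3A and 96.2 ± 12.5 in the control, and Klra8 35.1 ± 43.5 and 48.9 ± 17.9. The neutrophil sum of 494 and the T cell sum of 43633 were not the highest. Fcgr3, a low-affinity Fc receptor for IgG found on macrophages and mast cells among other cells, was the brightest of the 7 macrophage genes. It read 574 ± 48.1 in SEMA6A+SEMA3A, 802 ± 337 in SEMA6A, 1082 ± 322 in SEMA3A and 495 ± 68.5 in the control (log2 difference of SEMA3A from control 1.07, SE 0.28, limma adjusted p = 0.69). The part of any of these cell types, or of the transferrin receptor ratio given above, in the Kit and Cpa3 values of the SEMA3A group was not tested.

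The genes with the patterns most like each member over the 12 arrays were read from 10758 genes above the same level. For Kit they were Mvd (r = 0.93), Med12l (0.93) and Glrp1 (0.93), and for Mcpt8 they were Cabcoco1 (0.95), Man1c1 (0.94) and Pold4 (0.93). For Cpa3 they were Lrig2 (0.91), Zfand2b (0.90) and Aifm2 (0.89). Cma1 was followed most closely by B4gat1 (0.91), Klhl28 (0.85) and Slc26a11 (0.83), and Gata2 by Kcnmb4 (0.91), Grk5 (0.90) and Ccrl2 (0.86).

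Cma1 and Mcpt8 lie in one stretch of mouse chromosome 14 that also holds granzyme genes, proteases of cytotoxic lymphocytes. In RefSeq order the stretch runs Cma1, Cma2, Mcpt1, Mcpt2, Mcpt9, Mcpt4, Mcpt8, Ctsg, Gzme, Gzmd, Gzmg, Gzmn, Gzmf, Gzmc and Gzmb, of which 13 of 15 genes had a probe set of their own. The stretch was chosen after its values were seen and is described without a test of the group. On the side of Cma1 the 3 mast cell chymases Mcpt1, Mcpt2 and Mcpt4 lay below the array median on all 12 arrays, between 1.00 and 36.7. From Mcpt8 onward 8 of the 9 measured genes lay above it on all 12 arrays, the exception being Gzmn on 7 arrays. Ctsg, the cathepsin G of neutrophil and mast cell granules next to Mcpt8, read 833 ± 134 in SEMA6A+SEMA3A, 783 ± 173 in SEMA6A, 981 ± 257 in SEMA3A and 824 ± 68.5 in the control.

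Of the 13 genes, 0 were called in any comparison. Gzmn, a granzyme, read 44.7 ± 17.5 in SEMA6A+SEMA3A, 78.9 ± 26.2 in SEMA6A, 89.1 ± 42.2 in SEMA3A and 25.5 ± 9.20 in the control (SD, n = 3 each). Its log2 interaction was -1.88 (SE 0.45, limma adjusted p = 0.35), of the same sign as that of Mcpt8. Gzmf went the other way, with 17242 ± 1934 in SEMA6A+SEMA3A, 10387 ± 5008 in SEMA6A, 11353 ± 1959 in SEMA3A and 15025 ± 1736 in the control, and an interaction of 1.26 (SE 0.35, adjusted p = 0.35). Near-identical granzyme copies can share probes, so the granzyme values are uncertain as to which gene they come from.

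**Figure D4:**
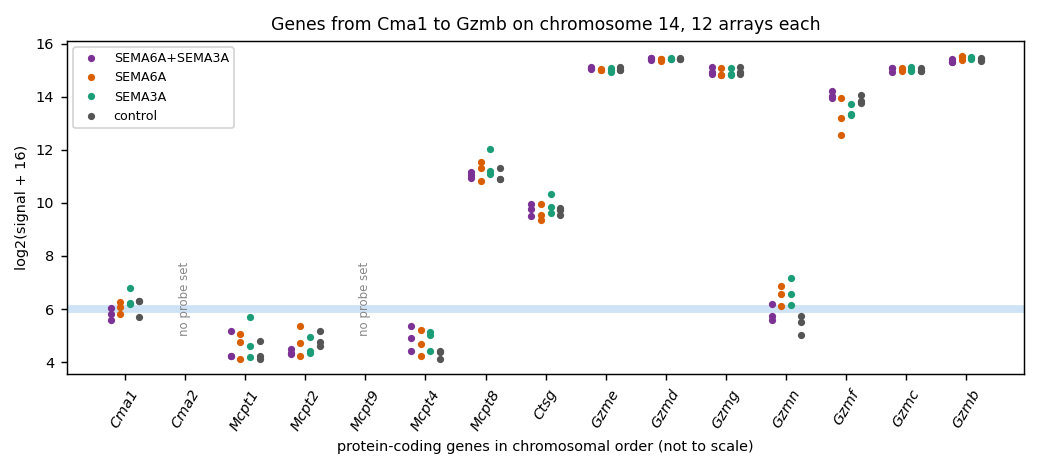
Log2(signal + 16) after quantile normalization (y axis) of the genes from Cma1 to Gzmb in RefSeq order on mouse chromosome 14 (x axis, not to scale), 1 point per array coloured by group, with the range of array medians as a blue band. Mcpt1, Mcpt2 and Mcpt4 lie below the band, while Mcpt8, Ctsg and the granzymes other than Gzmn lie above it.

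Genes that work with the members were read from lists of their pathways. Of 12 measured genes of IgE receptor signalling, 11 lay above the array median on at least 3 arrays, which the kinase Btk did not; these genes, such as Fyn, Lat and Lcp2, also serve the antigen receptors of T cells. Of 13 genes of KIT and the mast cell growth factors 7 did so, among them Stat5a, Stat5b, Il3ra and the phosphatase Ptpn6, while the cytokines Il3, Il33 and Tslp were below on all arrays. Of 12 mast cell granule genes 3 did so (Ctsg, Srgn and Ndst2), and the tryptases Tpsab1, Tpsb2 and Tpsg1, the monoamine transporter Slc18a2 and the mast cell receptor Mrgprb1 did not. Of 9 basophil and type 2 genes only Itga2b and Cd69 did so, while Il4, Il13, Cd200r3, Ccr3 and Ptgdr2 were below on all arrays. In a mixed culture the signal of a bright gene on these lists, such as Srgn or Cd69, need not come from mast cells or basophils. Of 6 lipid mediator genes Alox5 and Alox5ap were above on all arrays. Of 8 mast cell transcription factors Zfpm1 was above on all arrays, Mitf on 11, Runx1 on 8 and Spi1 on 6. Gata1, Tal1, Lmo2 and Cebpa were not above on at least 3 arrays.

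Markers of other cells in the cultures were read in the same way. All 4 measured eosinophil genes lay below the median on all arrays, while 5 of 6 T cell genes and 2 of 4 NK cell genes lay above it on all 12. Among progenitor genes, which share Kit with mast cells, Myb was above on all arrays and Cd34 on none. Of the 9 keratinocyte and carcinoma genes 7 reached the median on at least 3 arrays, with Epcam, Cdh1 and Krt6a above it on all 12. Krt14 and Trp63 lay below it on all 12. Neutrophil genes reached the median on at least 3 arrays in 2 of 7 cases, B cell genes in 1 of 4 and erythroid genes in 1 of 4. No gene of any of these lists passed the threshold in any comparison, and the median differences of the lists for SEMA3A over control ran from -0.26 for B cell genes to 0.41 for progenitor genes, with 0.36 for lipid mediators, 0.14 for IgE receptor signalling and -0.15 for basophil and type 2 genes, against -0.003 over all probe sets.

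The genes of each list with the smallest unadjusted p in any comparison were as follows, none past the adjusted threshold. Among the signalling genes, Btk differed by 0.72 between SEMA6A+SEMA3A and SEMA6A (adjusted p = 0.57) and Fcer1g by 0.23 between SEMA3A and control (adjusted p = 0.69). Il33, the alarmin that activates mast cells, differed by -0.67 between SEMA6A+SEMA3A and SEMA6A (adjusted p = 0.58), as did the tryptase Tpsab1 by 0.75 (adjusted p = 0.61) and the transcription factor Gata1 by 0.75 (adjusted p = 0.58). Runx1 differed by -1.24 between SEMA6A+SEMA3A and SEMA3A (adjusted p = 0.45), and Itga2b, an integrin of platelets and basophils, by 0.53 (adjusted p = 0.45). Between SEMA6A and control, Ptgs2, the inducible cyclooxygenase, differed by 1.45 (adjusted p = 0.64) and the prostaglandin synthase Hpgds by 0.71 (adjusted p = 0.64). Between SEMA6A+SEMA3A and control, the eotaxin receptor Ccr3 differed by -0.64 (adjusted p = 0.62), the eosinophil protein gene Prg2 by -0.62 (adjusted p = 0.88), Cd34 by 0.61 (adjusted p = 0.84), S100a8 by 1.29 (adjusted p = 0.70) and Pax5 by -0.86 (adjusted p = 0.77).

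Between SEMA3A and control, Il5ra differed by 0.49, Cd79a by -0.50 and Klra8 by -0.73, with adjusted p of 0.77, 0.78 and 0.80. Between SEMA6A+SEMA3A and SEMA3A, Hba-a1 differed by 0.39, Ncr1 by -0.82 and Cd3d by -0.22 (adjusted p = 0.73, 0.50 and 0.59). Between SEMA6A+SEMA3A and SEMA6A, Alas2 differed by -0.36 and Krt14 by 0.90 (adjusted p = 0.73 and 0.58), and between SEMA6A and control Sfn differed by 0.72 (adjusted p = 0.65). The Alas2 value was -0.0035 without SEMA6A array 2, and that of Klra8 was -0.11 without SEMA3A array 2 and -1.43 without SEMA3A array 3. For the interaction, the macrophage gene Cd68 had -0.66, the T cell gene Cd3e -0.59 and the decoy interleukin-1 receptor Il1r2 -2.21 (adjusted p = 0.37, 0.35 and 0.35), with -2.82 for Il1r2 without SEMA6A array 1 (adjusted p = 0.041). Of these genes Il1r2, Cd68, Cd3e, Cd3d, Itga2b and Fcer1g lay above the array median on all 12 arrays, and Btk, Il33, Tpsab1, Hpgds, Ccr3, Prg2, Il5ra, Cd34, S100a8, Pax5, Cd79a, Hba-a1, Alas2 and Krt14 on none.

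The smallest unadjusted p of the whole array for the interaction, 5.57e-06, belonged to a mast cell gene, Tpsg1, the transmembrane tryptase. It lay below the array median on all 12 arrays, with 6.03 ± 1.91 in SEMA6A+SEMA3A, 27.3 ± 13.0 in SEMA6A, 42.5 ± 10.2 in SEMA3A and 4.01 ± 2.40 in the control (SD, n = 3 each). Arrays with 1 factor lay between 16.8 and 48.5 and arrays with both or neither between 1.61 and 7.95, without overlap. The interaction was -2.45 on the log2 scale (SE 0.34, limma adjusted p = 0.162), -2.59 without SEMA6A array 1 (adjusted p = 0.0398), and it depended on the pseudocount, at -5.11 with 1 and -1.0 with 64. Hoxa9, a progenitor factor, read 15.6 ± 4.74 in SEMA6A+SEMA3A and 70.5 ± 9.49 in SEMA3A (log2 difference -1.50, SE 0.32, adjusted p = 0.36), and Ptpn6, which restrains KIT signalling, read 1658 ± 126 in SEMA6A+SEMA3A, 1238 ± 125 in SEMA6A, 1270 ± 434 in SEMA3A and 1724 ± 213 in the control, with an interaction of 0.91 (SE 0.25, adjusted p = 0.35).

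**Figure D5:**
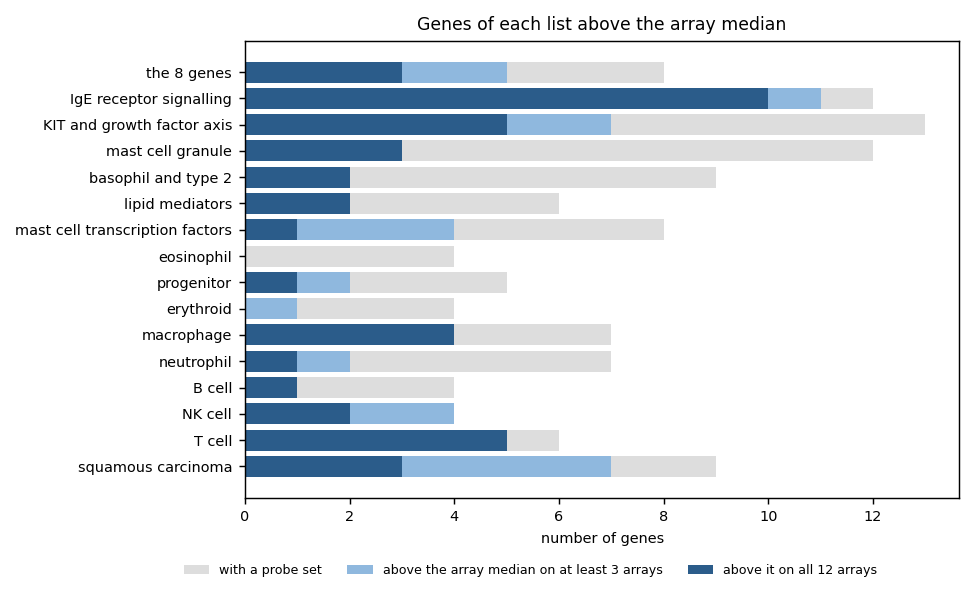
Number of genes (x axis) of each list with a probe set (grey), above the array median on at least 3 arrays (light blue) and on all 12 arrays (dark blue). The 8 genes reach 5 and 3, the mast cell granule list reaches 3 of 12, and the eosinophil list reaches 0 of 4.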

How the data were processed

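Biotin-labelled cRNA was prepared, per the labels' protocols, with 6 µg total RNA as input. The deposited table gives each probe set 1 linear intensity, computed by the authors with MAS5 (submitters' processing notes; version not given in the sources used here). Without the lowest and highest 2% of values every array averaged 500.0 in that table. Detection calls were not used here. Of 45101 probe sets, 64 were controls and were left out, 34945 named 1 gene, 932 several, and 9160 were unlisted and stayed unnamed.

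Signals were quantile normalized on the linear scale, since array medians differed by a factor of 1.26, and then transformed to log2(signal + 16). All 12 arrays entered 1 fit in limma 3.58.1 (R 4.3.3), with a mean for each group, a trended prior (8 residual and 5.45 prior degrees of freedom) and no filter on dim probe sets. P-values were adjusted by Benjamini-Hochberg over 45037 probe sets, with a threshold of 0.05. The median standard error for SEMA6A over control was 0.24, and the small number of arrays sets this precision. Signals are printed as deposited.

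The members and lists were chosen with earlier results of these data known. All probe sets of the 8 genes are reported, with the 2 genes of smallest p per list and the 3 genes that correlate best with each member above the array median on at least 3 arrays; other list genes were named after their values were seen. Correlations used the probe set of highest mean per gene on the log2 scale, with 100000 permutations in scipy 1.17.1 (Python 3.11.15), or all 1296 rearrangements within groups. Alternatives were other pseudocounts, filters and normalization, array weights, a replicate block, only the arrays compared, no prior trend and leaving out each array. The fit was tested on simulated data for SEMA6A over control, with changes placed in probe sets above the array median on at least 3 arrays. It recovered 19.6% of 1.5-fold, 53.8% of 2-fold and 91% of 4-fold changes, and 2.82% of its calls were false. A count of 0 called therefore does not show that nothing changed.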

Additional observations from a re-analysis of the deposited data

Results flagged for a closer look

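For 3 probe sets every array moved 1 way in 1 setting and the other way in the other, relative to the mean of the group set against. Each difference between effects was tested as an interaction that did not pass the threshold. The share of all probe sets with such a pattern was not counted, so the pattern is not a result about these genes. Some arrays lay close to the mean they were set against. Kit read 435 on SEMA6A array 1 against a control mean of 429, and Mcpt8 2157 on SEMA3A array 3 against a control mean of 2136. Hdc read 8.01 on SEMA6A+SEMA3A array 1 against a SEMA3A mean of 8.08. Groups of 3 arrays were not screened for outlying samples.

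For Kit 1452514_a_at, all 3 SEMA6A arrays lay above the control mean and all 3 SEMA6A+SEMA3A arrays lay below the SEMA3A mean. The log2 interaction was -0.79 (SE 0.27, limma adjusted p = 0.37). For Hdc 1454713_s_at, dim on all 12 arrays, the same pattern of arrays gave -0.38 (SE 0.30, adjusted p = 0.69). For Mcpt8 1449965_at, all 3 SEMA3A arrays lay above the control mean, while all 3 SEMA6A+SEMA3A arrays lay below the SEMA6A mean, with an interaction of -0.58 (SE 0.32, adjusted p = 0.53), which was -0.29 without SEMA3A array 1 and -0.78 without SEMA6A array 1.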

How the results depend on the processing

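Counts of called probe sets, 0 in all 6 comparisons, were 1 for SEMA6A over control and 22 for SEMA6A+SEMA3A over control with array weights, and 9 for SEMA6A+SEMA3A over control and 2 for SEMA6A+SEMA3A over SEMA3A with only the arrays compared. Leaving out 1 array gave 0 to 1 in the 4 comparisons other than SEMA3A over control, which stayed at 0, and 0 to 555 for the interaction, 555 without SEMA6A array 1. Same-numbered arrays did not deviate together (r -0.136 to 0.0397), and with a replicate block 0 were called in all 6. Of 982 alternative values for the 8 genes, 45 had the other sign and 0 passed the threshold. Signs turned for Cma1 in SEMA6A over control (0.10 with array weights, 0.033 without quantile normalization, -0.24 to 0.076 leaving out 1 array), for Cpa3 in SEMA6A+SEMA3A over SEMA6A (0.081 with array weights, -0.22 to 0.16), for Fcer1a in SEMA6A+SEMA3A over control (-0.0088 with pseudocount 1, -0.35 to 0.30), and for Gata2 in SEMA6A over control (0.015 without quantile normalization, -0.21 to 0.14) and in SEMA6A+SEMA3A over SEMA3A (-0.069 with array weights, -0.016 with pseudocount 1, -0.26 to 0.36). Leaving out 1 array also turned Cpa3 in SEMA6A over control (-0.020 to 0.35), Mcpt8 in SEMA6A+SEMA3A over control (-0.074 to 0.13), Gata2 in SEMA3A over control (-0.028 to 0.37), SEMA6A+SEMA3A over control (-0.086 to 0.53), SEMA6A+SEMA3A over SEMA6A (-0.029 to 0.59) and the interaction (-0.21 to 0.41), Hdc in SEMA6A+SEMA3A over control (-0.033 to 0.19), over SEMA3A (-0.39 to 0.031) and over SEMA6A (-0.22 to 0.00020), and Ms4a2 in SEMA3A over control (-0.31 to 0.077), SEMA6A+SEMA3A over control (-0.18 to 0.31), over SEMA3A (-0.086 to 0.40), over SEMA6A (-0.43 to 0.050) and the interaction (-0.34 to 0.14). Of 655 alternative values for the other named genes 0 had the other sign, and without SEMA6A array 1 the interactions of Il1r2 (-2.82, adjusted p = 0.041) and Tpsg1 (-2.59, adjusted p = 0.0398) passed. Without SEMA3A array 1, an alternative chosen after seeing the data, the permutation correlations of Kit with Mcpt8, Cpa3 and Cma1 were 0.75, 0.69 and 0.45, that of Cpa3 and Mcpt8 0.64, of Mcpt8 and Cma1 0.50 and of Cpa3 and Gata2 -0.050, none past the adjusted threshold. From deviations from group means they were 0.60 for Kit and Cpa3, 0.81 for Kit and Cma1, 0.61 for Cpa3 and Mcpt8 and 0.73 for Mcpt8 and Cma1. Without the 2 farthest arrays they were 0.74, 0.65 and 0.27 for Kit with Mcpt8, Cpa3 and Cma1, 0.34 for Cpa3 and Mcpt8, 0.62 for Mcpt8 and Cma1 and -0.28 for Cpa3 and Gata2 (0.14 over all arrays). The cause was not tested. Dim probe sets, with signals under the array median, are limited by background.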
